A study of Bos taurus with 20 samples.

Results

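Milk fat is made in the mammary epithelial cell from fatty acids taken up from the blood and from fatty acids built there, and the genes of this route were examined in glands of dairy cows challenged with Escherichia coli. The list held 40 gene symbols in 6 steps, which were uptake, de novo synthesis, desaturation and elongation, esterification, droplet secretion, and regulators. A gene was taken where the annotation of the Affymetrix GeneChip Bovine Genome Array gave its symbol to a probe set. This held for 38 symbols with 60 probe sets. FADS1 had no probe set, and AGPAT6 is the older symbol of GPAT4, so that both names stand for 1 gene. The annotation names 9155 genes in all. Of the 38 members, 12 had more than 1 probe set, and each is given by the probe set with the highest mean over the 20 arrays. A probe set was tested where it was above its array's median on no fewer than 2 arrays of the earlier time (24 h) or 3 of the later (48 h). This filter kept 33 members at 24 h, and 34 at 48 h and in the fit of all arrays. FADS2, ELOVL6, DGAT2 and PPARG did not pass it, nor did THRSP at 24 h. The values are log2 signals from robust multi-array average (RMA) processing, called log2 values here, and a difference of 1 is a 2-fold difference.

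The arrays measured biopsies of udder tissue from 5 Holstein Friesian cows in mid-lactation, with 1 array for each of 4 glands of a cow. The not challenged gland (NC) received no bacteria. The other glands received 100 cfu of E. coli and were left untreated (CNT), or were infused with 300 mg cefapirin, a cephalosporin antibiotic (CF), or with 300 mg cefapirin and 20 mg prednisolone, a glucocorticoid (CFPD). Infusions were given at 4 and 12 h after challenge, and again at 24 and 36 h in the cows sampled at 48 h. Tissue was taken at 24 h from cows 4 and 5 and at 48 h from cows 1, 2 and 3. Each group thus held 2 arrays of the earlier and 3 of the later time, and the times hold different animals. NC was the right front and CNT the left front gland of every cow, and the treated glands were rear glands. The position of the gland and its treatment therefore cannot be told apart, and every NC gland belonged to an animal with 3 challenged glands. The labels place the biopsy in the cisternal region, whereas the methods of the study name the parenchyma. In cows 1 and 4 the labels give CF to the right rear and CFPD to the left rear gland, the reverse of the other cows. These labels are in doubt, since published fold changes follow the arrays more closely with CF and CFPD exchanged in this pair of animals. All values below follow the labels. Because the mean of the CF and CFPD glands of a cow does not depend on this, it is given as well, under the name treated glands.

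In ruminants most of the acetyl units for fatty acid synthesis come from acetate of the blood, which the acetyl-CoA synthetases activate. Acetyl-CoA carboxylase and fatty acid synthase then build short and medium chains. Longer chains are released from circulating lipoproteins by lipoprotein lipase at the capillary wall and enter the cell through membrane proteins. Acyltransferases join the chains to glycerol, and the triglyceride is packed into droplets that leave the cell wrapped in apical membrane, with butyrophilin, xanthine dehydrogenase and adipophilin in the coat. The sterol regulatory element binding protein SREBF1, its escort SCAP and its anchors INSIG1 and INSIG2 control many of these genes. Mastitis is known for a loss of milk yield and a change of milk composition.

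The glands carried the RNA of secretory tissue on every array. The 9 genes of milk proteins and lactose synthesis with a probe set had a mean log2 value between 14.35 and 14.82 on the 20 arrays. This mean lay between 14.35 and 14.57 in CNT, below every other gland, with lowest means of 14.62 in NC, 14.60 in CF and 14.60 in CFPD. Of 12 epithelial markers 10 passed the filter, with a mean between 11.14 and 12.08, while KRT8 and ERBB3 did not pass. Of 7 adipocyte markers with a probe set only 2 passed, and ADIPOQ and LEP were among those that did not. Among the cell marker lists, the 1 that separated CNT from the other groups was that of neutrophils. Of its 9 genes with a probe set 6 passed the filter, and MMP9, ITGAM and FCGR3A did not. Its mean lay between 6.97 and 8.00 in NC, between 10.23 and 12.80 in CNT, between 7.33 and 8.17 in CF and between 7.59 and 8.26 in CFPD. In bulk tissue, fewer cells of a type and less RNA per cell cannot be told apart.

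Untreated challenged glands held less RNA of several milk fat genes than unchallenged glands, among them those of lipoprotein lipase, fatty acid synthase and a glycerol phosphate acyltransferase, and more of none by the same criteria. CNT was compared with NC at each time and averaged over both times with limma, and a gene is called where its p adjusted by Benjamini and Hochberg over all tested probe sets was under 0.05 and its log2 fold change was at least 1 in size. Averaged over both times, 5 of 34 members were called lower, against 0.882% of the 13486 probe sets tested, and 0 members were called higher, against 3.4% of probe sets. The 5 were LPL, VLDLR, FASN, GPAT4 and ABCG2. At 24 h, 5 of 33 members were called lower, against 0.769% of probe sets, and these were LPL, CD36, GPAT4, BTN1A1 and CIDEA. At 48 h, 3 of 34 were called lower, against 0.515% of probe sets, and these were LPL, FASN and ABCG2. At either time 0 members were called higher, against 1.62% of probe sets at 24 h and 2.15% at 48 h. LPL was the only member called in all 3. The median log2 fold change of the members averaged over both times was -0.50, beside 0.06 over all tested probe sets. Without a minimum fold, 9 members were lower and 1, ACLY, was higher, against 4.26% and 9.05% of probe sets. The list was chosen with earlier results of these data known. Setting its counts against these shares, here and below, is therefore not an independent test.

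The direction was shared by the cows for many members. CNT lay below NC within each of the 5 cows for 17 of 34 members, against 10.7% of probe sets, and above NC in each cow for ACLY and ELOVL5, against 19% of probe sets. For these 2 all CNT arrays also lay above all NC arrays, against 6.44% of probe sets. All 5 CNT arrays lay below all 5 NC arrays for 7 members, which were LPL, CD36, FASN, SCD, GPAT4, BTN1A1 and INSIG1, against 2.75% of probe sets. The size of the difference varied with the animal. The median of CNT minus NC over the members was -0.85 in cow 1, -0.21 in cow 2, -0.61 in cow 3, -0.29 in cow 4 and -0.57 in cow 5.

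**Figure D1:**
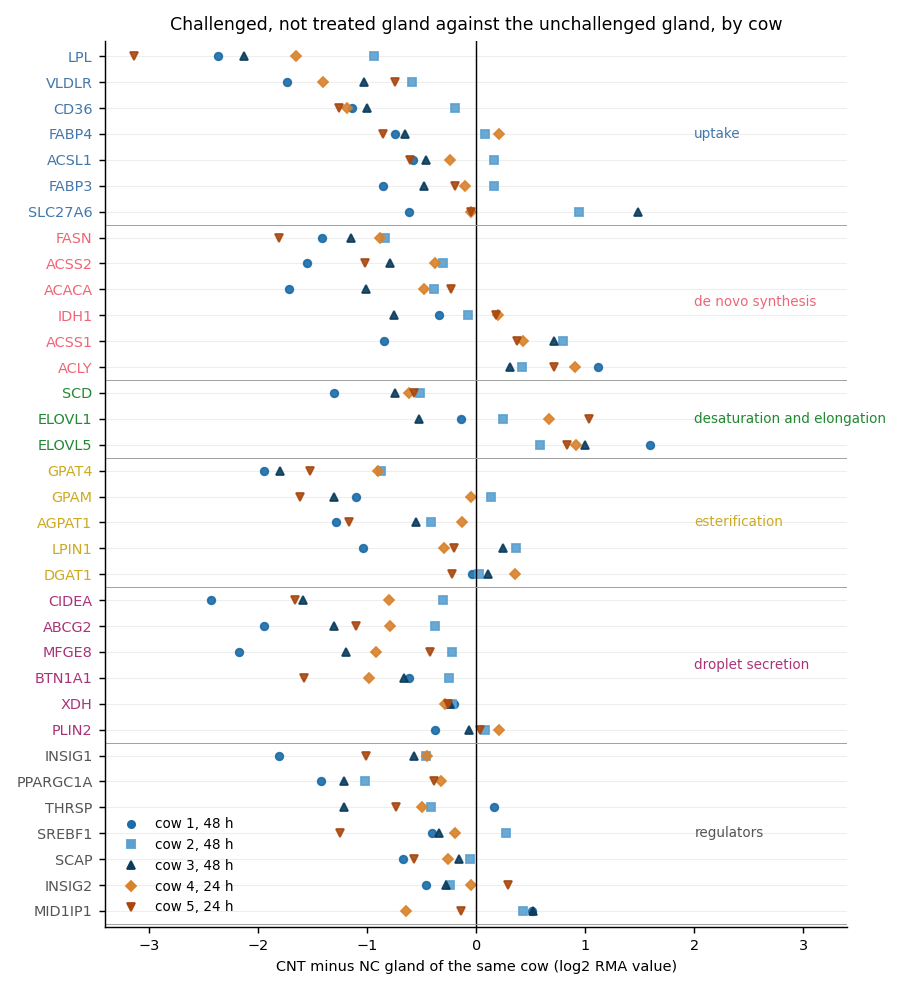
Difference in log2 value between the CNT and the NC gland of the same cow (horizontal axis) for the 34 members tested, grouped by step, with 1 point for each of 5 cows. All 5 points lie left of 0 for 17 members, and cow 2 is the cow nearest to 0 for LPL, CD36, CIDEA, ABCG2 and BTN1A1.

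Uptake had the member with the largest difference, LPL, which frees fatty acids from lipoproteins. LPL was at log2 values of 13.83, 13.29, 14.25, 12.65 and 13.47 in the NC glands of cows 1 to 5, and at 11.47, 12.36, 12.12, 11.00 and 10.33 in their CNT glands. The groups did not overlap, and the smallest within-cow difference was -0.94, in cow 2. The log2 fold change averaged over both times was -2.10 ± 0.33 (SE, adjusted p = 0.000898), or 4.29-fold lower in CNT.

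CD36, a membrane protein that takes up fatty acids and is also found in the coat of the milk fat globule, was at 14.27, 14.10, 14.54, 14.08 and 14.08 in NC and at 13.14, 13.91, 13.54, 12.90 and 12.82 in CNT. Cow 2 again had the highest CNT value, and the groups did not overlap. CNT differed from NC by -1.22 ± 0.14 at 24 h (adjusted p = 0.0154) and, less surely, by -0.78 ± 0.26 (adjusted p = 0.1) at 48 h, and the average of -0.997 ± 0.174 (adjusted p = 0.00189) fell just short of the minimum fold.

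VLDLR, a receptor for triglyceride-rich lipoproteins, was at 12.18, 10.57, 11.65, 11.74 and 11.16 in NC and at 10.44, 9.98, 10.62, 10.33 and 10.42 in CNT. The NC value of cow 2 lay below the CNT value of cow 3, so the groups overlapped, although CNT was below NC within every cow. The average log2 fold change was -1.09 ± 0.34 (adjusted p = 0.0473). The other 3 probe sets of VLDLR did not pass the filter and had average log2 fold changes of -0.18, -0.24 and -0.37 (adjusted p = 0.393, 0.329 and 0.203 in a fit without the filter), so the call rests on 1 of 4 probe sets.

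The fatty acid carriers and activators of this step passed no test. FABP3, the heart-type fatty acid binding protein, had an average log2 fold change of -0.27, FABP4, the adipocyte type, -0.38, and ACSL1, which activates long chains, -0.36. SLC27A6, a fatty acid transport protein, had 0.28 ± 0.90, with within-cow differences from -0.62 in cow 1 to 1.49 in cow 3.

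De novo synthesis held members that differed in opposite directions. FASN, the synthase itself, was at 14.07, 14.41, 14.25, 14.13 and 14.16 in NC and at 12.66, 13.57, 13.11, 13.25 and 12.35 in CNT. The NC glands lay close together and all CNT glands were below them. Averaged over both times it was lower by a log2 fold change of -1.24 ± 0.20 (adjusted p = 0.000986), and it was -1.34 at 24 h and -1.13 at 48 h.

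ACSS2, the cytosolic enzyme that activates acetate, was below NC in every CNT gland of the same cow, by 0.30 to 1.55, with an average of -0.79 ± 0.24 (adjusted p = 0.0399). ACACA, the carboxylase that makes malonyl-CoA, was likewise below NC in 5 of 5 cows, with -0.70 ± 0.25 (adjusted p = 0.0764). ACSS1, the mitochondrial counterpart of ACSS2, was above NC in 4 cows and below it by 0.84 in cow 1, with an average of 0.31 (adjusted p = 0.383).

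ACLY, which makes cytosolic acetyl-CoA from citrate, was the member that passed the test in the other direction. Its values were 10.17, 9.92, 10.04, 9.35 and 9.90 in NC and 11.29, 10.34, 10.35, 10.26 and 10.61 in CNT, so that every CNT gland was above every NC gland. For ACLY the average was 0.71 ± 0.21 (adjusted p = 0.0353), under the minimum fold. IDH1, a source of cytosolic NADPH, had an average of -0.10 (adjusted p = 0.729).

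In desaturation and elongation 3 of 5 members passed the filter. SCD, which introduces the double bond of oleic acid, was at 14.63, 14.65, 14.85, 14.58 and 14.56 in NC and at 13.34, 14.14, 14.11, 13.97 and 13.99 in CNT. Again the groups did not overlap, and the CNT gland of cow 1 was the lowest. On average SCD differed by -0.72 ± 0.15 on the log2 scale (adjusted p = 0.00694).

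ELOVL5, an elongase of polyunsaturated chains, was at 8.84, 8.37, 8.18, 8.61 and 8.73 in NC and at 10.43, 8.96, 9.18, 9.53 and 9.56 in CNT. All CNT glands were above all NC glands. Its average log2 fold change of 0.97 ± 0.33 was the largest in size of the 3 tested members of the step and had an adjusted p of 0.0618, and of 0.00333 with the cow as a block. ELOVL1, which elongates saturated very long chains, had 0.85 at 24 h and -0.14 at 48 h, and neither passed the test. FADS2 and ELOVL6, below the filter, had average log2 fold changes of -0.37 and 1.01 in a fit without it (adjusted p = 0.102 and 0.172).

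Esterification was represented by GPAT4, the glycerol phosphate acyltransferase of the endoplasmic reticulum. GPAT4 was at 11.23, 11.13, 11.98, 11.67 and 11.93 in NC and at 9.28, 10.26, 10.19, 10.77 and 10.41 in CNT. The groups did not overlap, and the difference was at least 0.87 in size in every cow. The average log2 fold change was -1.37 ± 0.30 (adjusted p = 0.00791), and the second probe set of the gene gave -1.35 (adjusted p = 0.0142).

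GPAM, the mitochondrial glycerol phosphate acyltransferase, was at 13.63, 13.23, 14.33, 11.73 and 12.64 in NC and at 12.52, 13.37, 13.02, 11.68 and 11.03 in CNT. CNT was 0.14 above NC in cow 2 and 0.05 below it in cow 4, and the average of -0.80 ± 0.37 did not pass the test (adjusted p = 0.167). AGPAT1, which adds the second chain, was below NC in 5 of 5 cows with an average of -0.70 (adjusted p = 0.133). LPIN1, a phosphatidate phosphatase, had -0.20 and DGAT1, which adds the last chain, had 0.05, with an SE of 0.15. DGAT2, the other enzyme of that reaction, was below the filter, and a fit without the filter gave it 0.79 ± 0.20 (adjusted p = 0.0236).

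Droplet secretion had the lowest median of the 6 steps. For the log2 fold change averaged over both times, the median over its 6 members was -0.91. BTN1A1, butyrophilin, was at 14.72, 14.71, 14.85, 14.57 and 14.58 in NC and at 14.11, 14.46, 14.19, 13.59 and 13.01 in CNT. The 2 lowest values were the CNT glands sampled at 24 h. They gave a log2 fold change of -1.28 ± 0.21 (adjusted p = 0.0318), while the later glands gave -0.51 ± 0.15 (adjusted p = 0.0832), and the average was -0.89 ± 0.12 (adjusted p = 0.000401).

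CIDEA, a lipid droplet protein that promotes droplet growth, was at 13.39, 11.62, 13.52, 10.95 and 11.52 in NC and at 10.96, 11.31, 11.93, 10.15 and 9.85 in CNT. The cows differed widely in NC, and the groups overlapped, but CNT was below NC within each cow by 0.31 to 2.43. CIDEA was called at 24 h, with -1.23 ± 0.24 (adjusted p = 0.0463), while the average of -1.34 ± 0.43 had an adjusted p of 0.0518, and of 0.00186 with the cow as a block.

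ABCG2, a membrane transporter that moves small molecules into milk rather than lipid, was at 14.41, 13.98, 14.51, 13.27 and 13.52 in NC and at 12.47, 13.61, 13.21, 12.47 and 12.42 in CNT. CNT was below NC in every cow, by 0.37 in cow 2 and by 1.95 in cow 1. On average ABCG2 differed by -1.08 ± 0.22 on the log2 scale (adjusted p = 0.00497). Its second probe set, below the filter, gave -0.60 (adjusted p = 0.047 in a fit without the filter).

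The other proteins of the step were not called without the block. XDH, xanthine dehydrogenase, was below NC in every cow by 0.20 to 0.29, with an average of -0.25 ± 0.10 (adjusted p = 0.108). PLIN2, adipophilin, had an average close to 0, with an SE of 0.13, and within-cow differences from -0.38 to 0.21. MFGE8, lactadherin, ranged from -0.22 in cow 2 to -2.17 in cow 1, with an average of -0.93 ± 0.35 (adjusted p = 0.087).

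Of the regulators 7 of 8 were tested and 0 were called by limma, with 3 at an unadjusted p under 0.05 averaged over both times, as were 30% of all probe sets. INSIG1, which holds the SREBF1 precursor in the endoplasmic reticulum, had the largest average. It was at 12.45, 12.71, 12.71, 12.65 and 13.34 in NC and at 10.64, 12.25, 12.14, 12.20 and 12.32 in CNT. The CNT gland of cow 1 lay far below the other glands, and all CNT glands were below all NC glands. For INSIG1 the average was -0.84 ± 0.29 (adjusted p = 0.0646).

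PPARGC1A, a transcriptional coactivator, was below NC in 5 of 5 cows by 0.32 to 1.42, with an average of -0.78 ± 0.30 (adjusted p = 0.0905). This holds for the probe set with the highest mean. The other probe sets of PPARGC1A gave averages of -0.25, -0.64 and -0.02. They lay above 0 at 24 h, with 0.31, 0.02 and 0.54 in a fit without the filter, and below 0 at 48 h, with -0.81, -1.29 and -0.58. SCAP was below NC in 5 of 5 cows with -0.36 (adjusted p = 0.11), SREBF1 had -0.44 (adjusted p = 0.298) and INSIG2 had -0.10 (adjusted p = 0.801). THRSP, a protein of lipogenic tissue, had -0.55 (adjusted p = 0.315) and its relative MID1IP1 had 0.05 (adjusted p = 0.879). PPARG, the nuclear receptor of adipocyte lipid genes, was below the filter, with 0.15 in a fit without it (adjusted p = 0.593).

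**Figure D2:**
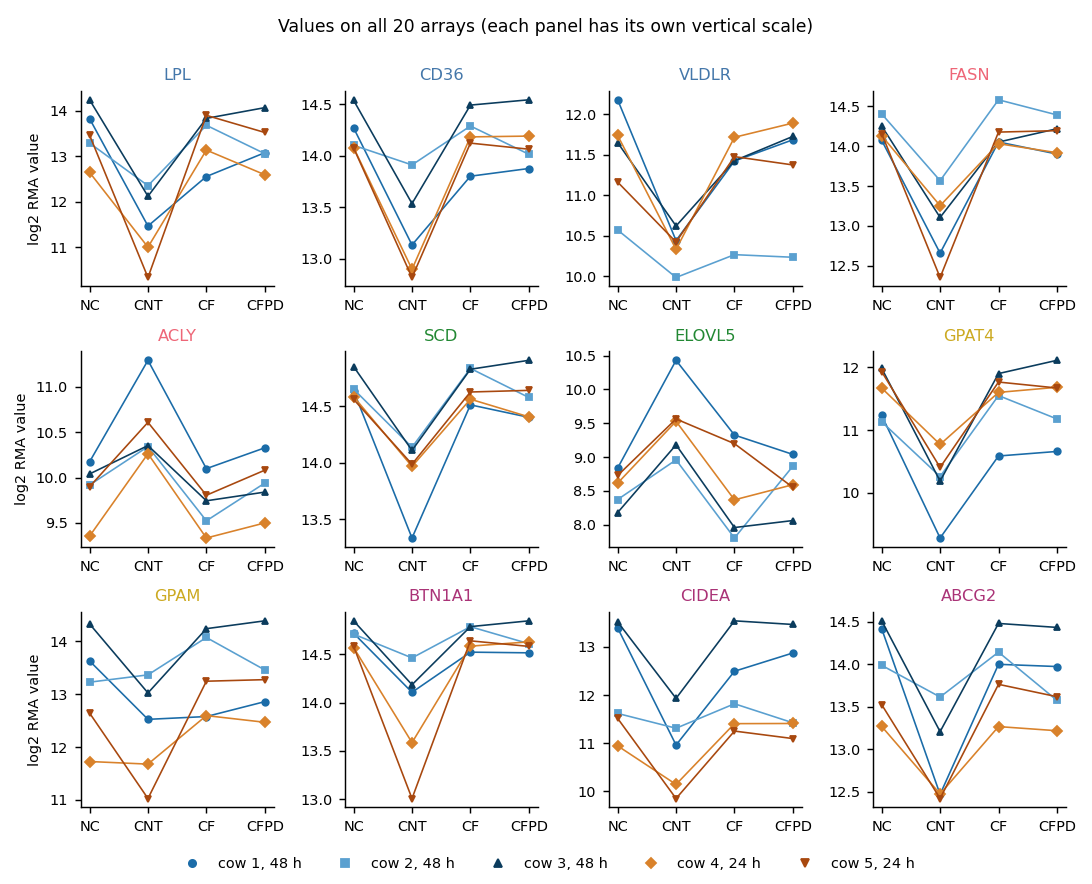
Log2 values of 12 members on all 20 arrays, with the 4 glands of a cow joined by a line (blue, cows sampled at 48 h, orange, cows sampled at 24 h). The CNT gland is the lowest gland of every cow for LPL, CD36, FASN and BTN1A1 and the highest for ACLY and ELOVL5. The CF and CFPD glands mostly lie near the NC gland. In cow 1 they lie below it for LPL (12.56 and 13.08 against 13.83), GPAM and CIDEA, and in cow 4 above it for GPAM.

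With the cow as a block, which uses that the 4 glands of a cow came from 1 animal, the same differences had smaller errors and more members and more of all probe sets were called. At 48 h the count went from 3 to 10 of 34, with 9 lower and 1 higher, while the share of all probe sets called lower went from 0.515% to 1.3% and that called higher from 2.15% to 3.87%. CIDEA, GPAT4, ACACA, MFGE8, VLDLR and PPARGC1A were then called lower besides LPL, FASN and ABCG2, and ELOVL5 was called higher, with 1.06 ± 0.25 (adjusted p = 0.0242). PPARGC1A was the only regulator among them, with -1.22 ± 0.20 at 48 h (adjusted p = 0.00534) for its probe set with the highest mean. At 24 h the block added FASN and VLDLR, while the share of all probe sets called lower went from 0.769% to 2.11%. Averaged over both times it added CIDEA, while that share went from 0.882% to 1.17%.

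The calls depended on few animals. LPL kept its call averaged over both times without any array or cow. FASN lost it without cow 5 (adjusted p = 0.0577), and GPAT4 lost it without cow 4 (adjusted p = 0.0757) or cow 5 (adjusted p = 0.172). ABCG2 lost it without cow 4 (adjusted p = 0.0519), without cow 5 (adjusted p = 0.115), and, by the minimum fold, without cow 1 or that cow's CNT array. VLDLR lost it in 13 of 15 fits that left out an array or a cow. The count of 5 became 3 without cow 1 or its CNT gland. Over all probe sets the number called lower went from 119 to 100 and 88 in these fits. Without cow 5, fewer members and fewer of all probe sets were called lower.

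Other genes of the pathway were taken from a list of 90, of which 51 were tested. Averaged over both times 1 was called lower, against 0.882% of probe sets, and 3 were called higher, against 3.4%, and the median log2 fold change was -0.09. The lower one was PNPLA2, the adipose triglyceride lipase, with -1.30 ± 0.30 (adjusted p = 0.0102). The higher ones were ACSL5, a long-chain acyl-CoA synthetase, with 1.44 ± 0.36 (adjusted p = 0.0161), FABP5, the epidermal fatty acid binding protein, with 1.30 ± 0.34 (adjusted p = 0.0194), and CEBPB, a transcription factor also active in inflammation, with 1.05 ± 0.28 (adjusted p = 0.0218). SCARB1, a lipoprotein receptor, was called higher at 24 h with 1.02 ± 0.19 (adjusted p = 0.0463). Within uptake, LPL was called lower in the same glands in which ACSL5 and FABP5 were called higher. Which cells of the bulk tissue held the RNA of these genes was not tested.

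Genes of fatty acid oxidation were 14, with 0 called by limma averaged over both times, 1 at an adjusted p under 0.05 without the minimum fold, and a median of 0.16. The 9 genes of milk proteins and lactose synthesis had 0 called and a median of -0.12, between -0.50 and 0.02. Their mean was lower in CNT than in NC in every cow, at 14.70, 14.68, 14.80, 14.62 and 14.68 in NC and 14.35, 14.54, 14.57, 14.55 and 14.56 in CNT. Most of the 9 genes lay toward the upper end of the log2 values measured, as did FABP3, XDH, PLIN2 and BTN1A1. Whether differences are compressed at that level was not tested, so small differences there do not show that the RNA hardly changed.

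Markers of other cells moved with the groups. The 6 neutrophil markers were all called higher in CNT averaged over both times, with a median log2 fold change of 3.93. Of 8 macrophage markers 2 were called higher, CD68 with 3.14 and CSF1R with 1.04. Of 8 myoepithelial markers 7 lay below 0, with a median of -0.67, and CNN1, a smooth muscle protein, was called lower at 24 h with -1.68 ± 0.31 (adjusted p = 0.0419). Of 10 epithelial markers 5 lay below 0, with a median of -0.03, and KRT19 was called lower at 24 h with -1.31 ± 0.24 (adjusted p = 0.0419). The lists of adipocyte, endothelial, and T and NK cell markers had 0 called, with medians of -0.02, 0.30 and 0.03. The part of these cells in the differences of the milk fat genes was not tested. From NC to CNT the neutrophil mean went from 7.94 to 10.23 in cow 1, from 6.97 to 10.65 in cow 2 and from 7.65 to 11.54 in cow 3. It went from 7.52 to 11.02 in cow 4 and from 8.00 to 12.80 in cow 5.

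**Figure D3:**
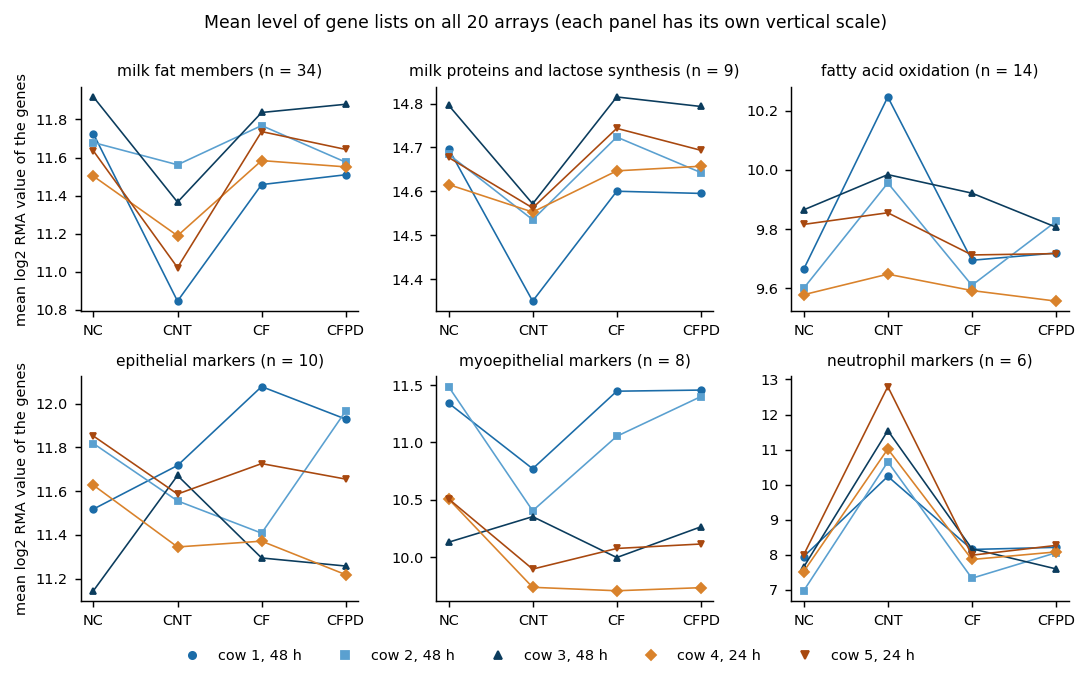
Mean log2 value of 6 gene lists on all 20 arrays, with the 4 glands of a cow joined by a line. The mean of the 34 milk fat genes is lowest in the CNT gland of every cow, at 10.85 to 11.56, and the mean of the 6 neutrophil markers is highest there, while the epithelial markers lie between 11.34 and 11.72 in CNT and between 11.14 and 11.85 in NC.

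The difference between CNT and NC was compared between the times in the fit of all arrays, which sets cows 1, 2 and 3 against cows 4 and 5. By limma 0 of 34 members passed the test, as did 0 of all probe sets, and 3 members had an unadjusted p under 0.05, as did 7.8% of probe sets. These were BTN1A1, with a difference at 48 h less negative by 0.77 ± 0.25 (adjusted p = 0.445), MID1IP1 with 0.88 ± 0.35 (adjusted p = 0.565) and ELOVL1 with -0.99 ± 0.41 (adjusted p = 0.58). For LPL the estimate was 0.58 with an SE of 0.66, an error larger than the estimate. CNT minus NC had 1 sign in both earlier cows and the other sign in all later cows for IDH1 and MID1IP1, against 7.24% of probe sets, although 1 of the other 2 probe sets of IDH1 was above 0 at both times, with 0.06 and 0.14. For treated against CNT the test between the times called 0 members by limma, against 0.0371% of probe sets called lower and 0.0148% called higher, and 4 members had an unadjusted p under 0.05, as did 7.33% of probe sets.

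In the treated glands the milk fat genes that were low in CNT lay near their NC level on average over the cows, though not in every gland. CF was higher than CNT for 5 of 33 members at 24 h, against 0.546% of probe sets, for 1 of 34 at 48 h, against 0.138%, and for 4 of 34 averaged over both times, against 0.734%. The 5 at 24 h were LPL, CD36, GPAT4, BTN1A1 and CIDEA, the 1 at 48 h was FASN, and the 4 were LPL, FASN, GPAT4 and ABCG2. CFPD was higher than CNT for 3 of 33 at 24 h, against 0.361%, and for 3 of 34 averaged over both times, against 0.615%. The former were CD36, GPAT4 and BTN1A1, and the latter LPL, FASN and GPAT4. At 48 h limma called 0 of 34 in CFPD against CNT, where 0.162% of probe sets were called higher, and 12 members had an unadjusted p under 0.05, as did 18.7% of probe sets. The cow as a block changed these counts. With it CFPD was higher than CNT for 4 members at 48 h, LPL, FASN, GPAT4 and PPARGC1A, against 0.7% of probe sets, for 8 at 24 h, against 1.48%, and for 6 averaged over both times, against 0.905%. CF was then higher than CNT for 9 members at 24 h, against 1.75%, and at 48 h for 6, against 0.746%, with ELOVL5 called lower, against 3.23%. Without the block, no member was called lower in CF than in CNT, against 1.59% of probe sets at 24 h, 1.5% at 48 h and 3.23% on average, nor in CFPD, against 1.04%, 1.05% and 2.45%. These comparisons share the CNT glands with each other and with the comparison to NC, so their values are not independent.

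The treated glands, as the mean of CF and CFPD, were higher than CNT for 8 of 33 members at 24 h, against 0.915% of probe sets, for 3 of 34 at 48 h, against 0.392%, and for 7 of 34 averaged over both times, against 0.816%. The 7 were LPL, VLDLR, FASN, GPAM, GPAT4, CIDEA and ABCG2. None was called lower, against 2.51%, 2.17% and 3.18% of probe sets. Without a minimum fold, averaged over both times, 15 members were higher, against 6.85% of probe sets, and 2, ACLY and ELOVL5, were lower, against 12.7%. With the cow as a block, 7 members were called higher at 48 h, against 0.869% of probe sets, and ELOVL5 was called lower, against 3.32%.

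Values on the treated arrays were as follows in the order of cows 1 to 5. LPL was at 12.56, 13.68, 13.84, 13.14 and 13.90 in CF and at 13.08, 13.06, 14.07, 12.60 and 13.53 in CFPD. All of these lay above the highest CNT gland, and cow 1 had the lowest CF gland. The log2 fold change of treated against CNT was 2.01 ± 0.28 (adjusted p = 0.000289).

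CD36 was at 13.80, 14.29, 14.49, 14.18 and 14.12 in CF and at 13.88, 14.02, 14.54, 14.19 and 14.06 in CFPD. Cow 1 was lowest in both, below the CNT gland of cow 2, and the treated glands were 0.96 ± 0.15 above CNT (adjusted p = 0.000595). VLDLR was at 11.42, 10.27, 11.42, 11.71 and 11.47 in CF and at 11.68, 10.23, 11.72, 11.89 and 11.37 in CFPD, with the glands of cow 2 within the range of CNT. Its log2 fold change of treated against CNT was 1.01 ± 0.30 (adjusted p = 0.0288).

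FASN was at 14.05, 14.58, 14.05, 14.03 and 14.18 in CF and at 13.90, 14.39, 14.22, 13.92 and 14.20 in CFPD. Every one of these 10 glands was above the highest CNT gland, and the log2 fold change of treated against CNT was 1.18 ± 0.17 (adjusted p = 0.000337). The same held for SCD, with 0.70 ± 0.13 (adjusted p = 0.00268), and for BTN1A1. All 5 CF arrays lay above all 5 CNT arrays for 4 of 34 members, against 2.53% of probe sets, and all 5 CFPD arrays for 4, against 2.77%, and in each case these were LPL, FASN, SCD and BTN1A1.

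GPAT4 was at 10.59, 11.55, 11.90, 11.60 and 11.76 in CF and at 10.66, 11.18, 12.11, 11.68 and 11.67 in CFPD. The glands of cow 1 were lowest in both and below the CNT gland of cow 4, and treated against CNT gave 1.25 ± 0.26 (adjusted p = 0.00441). GPAM was at 12.58, 14.07, 14.24, 12.60 and 13.25 in CF and at 12.86, 13.46, 14.39, 12.47 and 13.28 in CFPD. In cow 1 the CF gland was close to the CNT gland, and treated against CNT gave 1.09 ± 0.32 (adjusted p = 0.0295), a call that CNT against NC did not reach.

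BTN1A1 was at 14.52, 14.79, 14.79, 14.58 and 14.64 in CF and at 14.52, 14.61, 14.85, 14.63 and 14.58 in CFPD. CIDEA was at 12.49, 11.82, 13.54, 11.41 and 11.25 in CF and at 12.87, 11.42, 13.46, 11.41 and 11.10 in CFPD. ABCG2 was at 14.00, 14.14, 14.48, 13.26 and 13.76 in CF and at 13.97, 13.57, 14.43, 13.22 and 13.62 in CFPD. BTN1A1 did not overlap with CNT, whereas CIDEA and ABCG2 did. For CIDEA the overlap came through differences between cows. For ABCG2 the CFPD gland of cow 2 also lay slightly below the CNT gland of the same cow, at 13.57 against 13.61. Treated against CNT gave 0.87 ± 0.11 for BTN1A1 (adjusted p = 9.04e-05), under the minimum fold, 1.25 ± 0.37 for CIDEA (adjusted p = 0.0298) and 1.01 ± 0.19 for ABCG2 (adjusted p = 0.00225).

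ACLY and ELOVL5, the members with CNT above NC in every cow, also lay near NC on average after treatment. ACLY was at 10.10, 9.52, 9.74, 9.33 and 9.81 in CF and at 10.33, 9.94, 9.84, 9.50 and 10.08 in CFPD, with -0.75 ± 0.18 for treated against CNT (adjusted p = 0.0106). ELOVL5 was at 9.32, 7.80, 7.96, 8.37 and 9.20 in CF and at 9.04, 8.86, 8.06, 8.59 and 8.55 in CFPD, with -0.94 ± 0.28 (adjusted p = 0.0307). For ACLY all 5 CF glands were below all CNT glands, against 4.92% of probe sets, and for ELOVL5 the CF and CFPD glands of cow 1 and the CF gland of cow 5 were within the range of CNT.

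The counts for treated against CNT also rested on few arrays. Averaged over both times LPL kept its call without any array or cow. FASN lost its call, by the minimum fold, without cow 5 or the CNT gland of cow 5, and GPAT4 lost it without cow 4 (adjusted p = 0.0543) or cow 5 (adjusted p = 0.116). The count of 7 became 1 without cow 5 and 2 when only its CNT array was left out. It became 3 when the CNT array of cow 1 was left out, and 4 in fits that lacked cow 1, cow 3, cow 4 or the CFPD array of cow 3.

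Against NC the treated glands showed no called member. By limma 0 members were called in CF against NC, in CFPD against NC and in treated against NC at 24 h, at 48 h and averaged over both times, as were 0% of probe sets, and in each of these 0 members had an unadjusted p under 0.05. The average log2 fold changes of treated against NC ranged from -0.12 for GPAT4 to 0.29 for GPAM, and 33 of 34 were within 0.2 of 0. The 95% intervals were narrower than the differences in CNT for some members and not for others. For LPL the interval ran from -0.69 to 0.52, for FASN from -0.42 to 0.31, for BTN1A1 from -0.25 to 0.20, and for CIDEA from -0.88 to 0.70, and differences from NC within these bounds remain possible. In cow 1 the median of treated minus NC over the members was -0.23, with 27 of 34 below 0, whereas it lay between -0.03 and 0.04 in the other 4 cows.

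**Figure D4:**
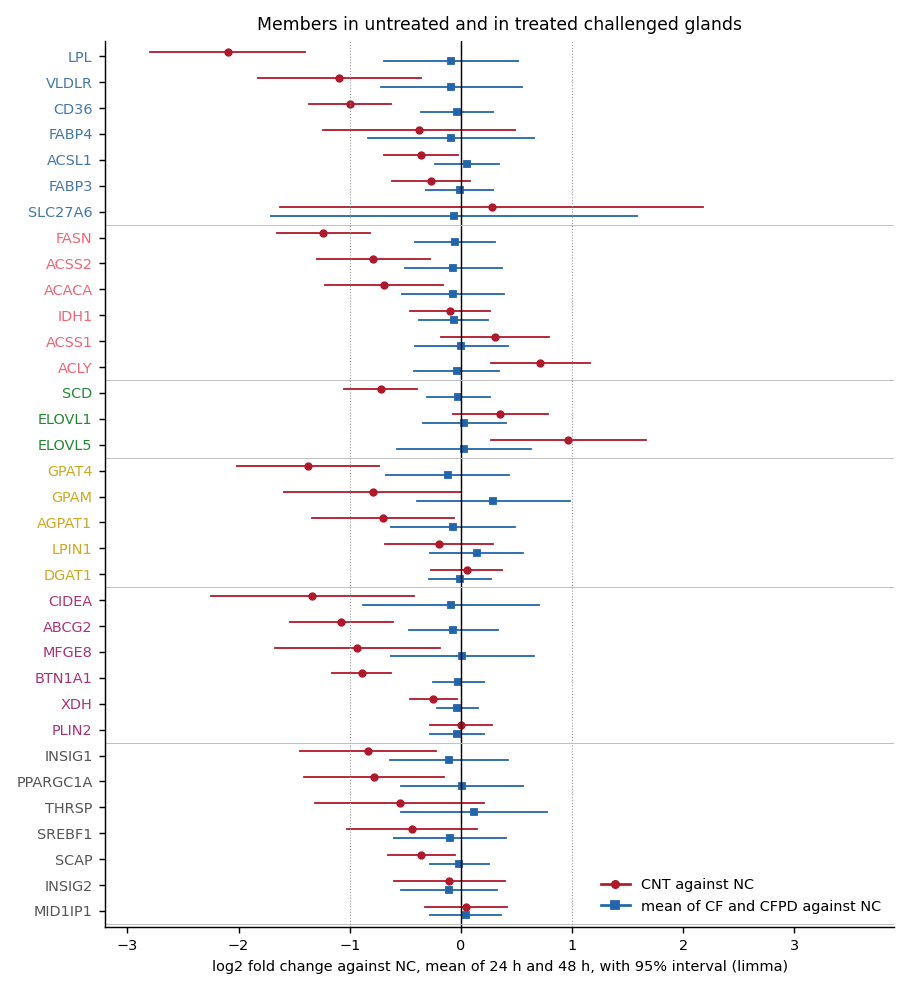
Log2 fold change against NC averaged over both times with its 95% interval, for CNT (red) and for the mean of CF and CFPD (blue), for the 34 members tested. The CNT interval lies below 0 for 18 members, LPL, CD36, FASN and BTN1A1 among them, and above 0 for ACLY and ELOVL5, and every interval of the treated glands includes 0.

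Prednisolone was the difference between CFPD and CF, and 0 members were called between them by limma at 24 h, at 48 h or averaged over both times, as were 0% of probe sets, with 0 members at an unadjusted p under 0.05. Averaged over both times CFPD minus CF ranged from -0.46 for SLC27A6 to 0.23 for ACLY. The interval was from -0.91 to 0.49 for LPL and from -0.21 to 0.68 for ACLY. With exchanged labels in cows 1 and 4 the count stayed at 0, the count for CFPD against CNT went from 3 to 5 at 24 h and from 0 to 1 at 48 h, and that for CF against CNT was 5 and 1 as before.

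The members also differed in how far the animal set their level. The share of the variance over 20 arrays that lay between cows, the time of sampling included, had a median of 47.5% for the 34 members tested, and the share between NC, CNT, CF and CFPD had a median of 31.6%, beside 45.7% and 16.2% over all tested probe sets. FASN had the highest share between the groups at 79.0%, followed by SCD at 73.1%, LPL at 68.0% and CD36 at 67.7%. At the other end SLC27A6 had 90.1% between cows, with means of a cow from 6.42 to 10.6, FABP4 had 88.1% and IDH1 87.8%. IDH1 was above all 24 h arrays on all 48 h arrays, against 1.5% of probe sets, and MID1IP1 was below all of them, against 1.4%. With different cows at the times, the cow and the time cannot be told apart in these differences.

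**Figure D5:**
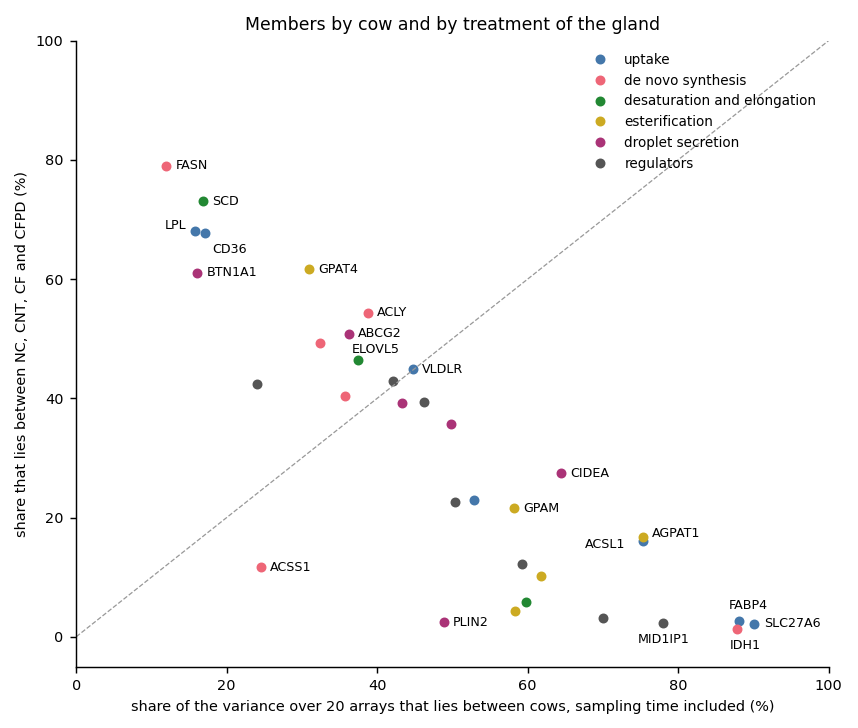
Share of the variance of each member over the 20 arrays that lies between the 5 cows (horizontal axis, sampling time included) and between NC, CNT, CF and CFPD (vertical axis), coloured by step. FASN, SCD, LPL and CD36 lie at the top left, and SLC27A6, FABP4 and IDH1 at the bottom right.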

How the data were processed

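The deposited values are log2 signals of probe sets. The authors made them with the RMA method of affy, which corrects the background, normalizes by quantiles and summarizes the probes. Versions, and whether the arrays of both times were normalized together, are not given in the sources used here. The table holds 24128 probe sets, of which 112 are controls and were left out, and 13318 have 1 gene symbol, 86 several and 10724 none. The values were not normalized again in the main setting. The highest value was 15.6.

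The filter on low values left 13004 probe sets at 24 h, 13000 at 48 h and 13486 in the fit of all 20 arrays. The 4 groups of a time were fitted with limma 3.58.1 in R 4.3.3, without a term for the cow, as the study's methods name none. The average over both times and the difference between times came from the fit of all arrays. Errors given as SE are of the moderated variance, with 4, 8 and 12 residual degrees of freedom, plus 3.05, 3.38 and 3.54 from the prior. Precision is limited by how few arrays there are. P-values were adjusted by Benjamini and Hochberg over all probe sets of a comparison. The pipeline was tested on simulated data.

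Glands of a cow deviated together, with a mean correlation of deviations from the group means of 0.52 at 24 h over 12 pairs and 0.45 at 48 h over 18 pairs, the lowest being 0.06. With 2 cows at 24 h the deviations of 1 cow mirror those of the other, so the 12 pairs are not separate values. The glands of a cow come from 1 animal by the labels, so fits that block on the cow, as a fixed or a random effect, were run as alternatives. Other alternatives were no filter, no minimum fold, all arrays in 1 fit, arrays centred or quantile normalized again, a variance trend with robust moderation, exchanged labels of cows 1 and 4, and each array or cow left out.

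The members and all lists were chosen with earlier results of these data known. The comparison of the treated glands, as the mean of CF and CFPD, was added after seeing the data. Named genes are all members with a probe set. Of other lists, those called in CNT against NC are named, up to 6 a comparison for the pathway and 3 for markers. Called neutrophil markers are given as a count, and calls of the other lists in treated glands against CNT are not given.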

Additional observations from a re-analysis of the deposited data

Results flagged for a closer look

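IDH1 and MID1IP1 differed between the time points in sign in every cow. CNT minus NC of IDH1 was above 0 in both cows sampled at 24 h and below 0 in all 3 cows sampled at 48 h, and the difference between the times was -0.58 ± 0.34 on the log2 scale (limma, adjusted p = 0.726). This is 1 of 3 probe sets of IDH1. Of the others, 1 gave 0.17 at 24 h and -0.67 at 48 h, and 1 was above 0 at both times, with 0.06 and 0.14. MID1IP1 did the reverse, with 0.88 ± 0.35 (adjusted p = 0.565). Neither passed the test of the difference, and 7.24% of all tested probe sets showed such opposite signs.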

How the results depend on the processing

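Numbers here count called members. With the replicate block, which takes the cow as a fixed or a random effect, CNT against NC at 48 h went from 3 to 10 under either, CF against CNT from 5 to 9 under either at 24 h and from 1 to 7 (fixed) or 6 (random) at 48 h, CFPD against CNT from 3 to 8 at 24 h, from 0 to 4 at 48 h and from 3 to 6 averaged over both times, and treated against CNT from 3 to 8 at 48 h and from 0 to 1 (MID1IP1) for 48 h minus 24 h. The block moved no other count by over 1.5 times. With the fixed block the shares of all probe sets called rose too. For CNT against NC at 48 h, the share called lower went from 0.515% to 1.3%. The share called higher in CF against CNT went from 0.546% to 1.75% at 24 h and from 0.138% to 0.746% at 48 h. In CFPD against CNT it went from 0.361% to 1.48% at 24 h and from 0.162% to 0.7% at 48 h. Without a minimum fold, the average over both times went from 5 to 10 for CNT against NC, from 4 to 8 for CF, from 3 to 7 for CFPD and from 7 to 17 for treated against CNT, and treated against CNT at 48 h from 3 to 5. Without the filter, CNT against NC at 24 h went from 5 to 3. With all arrays in 1 fit, CF against CNT at 48 h went from 1 to 3, and treated against CNT from 8 to 4 at 24 h and from 3 to 5 at 48 h. Quantile normalization gave 8 for CF and 6 for CFPD against CNT averaged over both times. CFPD against CNT at 48 h went from 0 to 1 with all arrays in 1 fit, with centred or quantile normalized arrays, with the trend and robust prior, and with exchanged labels, which also gave 5 at 24 h. The cause of these moves was not tested. No direction reversed. Of 404 values of named genes under these settings, 17 lost their call.

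Leaving out each array or cow gave 0 to 4 calls at 24 h, 0 to 3 at 48 h and 1 to 7 averaged over both times for CNT against NC. For CF against CNT it gave 0 to 5, 0 to 3 and 0 to 8, for CFPD against CNT 0 to 4, 0 to 1 and 0 to 7, and for treated against CNT 0 to 6, 0 to 5 and 1 to 9, with 0 to 1 for 48 h minus 24 h. The number called over all probe sets changed in such fits as well. For CNT against NC at 48 h, 67 probe sets were called lower in the main fit and 0 to 90 with an array or cow left out. At 24 h leaving out an array or cow leaves 1 array in a group, which is taken to vary like the others. Of 534 values of named genes, 242 lost their call. A probe set below the median of the arrays, as for DGAT2 and ELOVL6, is close to the background signal.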
